A study of Mus musculus with 10 samples.

Results

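The genes described here are the 5 core components of the angiopoietin-Tie axis: the ligands Angpt1 and Angpt2, the receptors Tek (encoding Tie2) and Tie1, and the phosphatase Ptprb (encoding VE-PTP). They were chosen by gene symbol, not by their measured values, and are 5 of the 24011 transcripts with a symbol in the deposited table, each gene having 1 transcript there. All 5 passed the filter on low values, as did 13933 of all transcripts. Liver RNA was sequenced from 10 male C57BL/6 mice, 8 to 12 weeks old, on day 6 after injection of adenovirus into the tail vein. In the AdVEGF group (n = 5) the vector expressed VEGF-A165 from the CMV promoter, which is active in many cell types, and in the AdCMV group (n = 5) the vector carried that promoter and no transgene, so both groups received virus. The labels call the mice of a group biological replicates, and whole liver was used, with no sorting of cells.

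The Tie receptors are receptor tyrosine kinases found mainly on endothelial cells. Angiopoietin 1, made largely by mural and stellate cells, activates Tie2 and keeps vessels quiescent through Akt and Foxo1, whereas angiopoietin 2, made by endothelial cells, blocks or weakly activates Tie2 depending on context and is produced where vessels remodel. Tie1 binds no angiopoietin with high affinity by itself and modulates Tie2, while VE-PTP removes phosphate from Tie2 and acts on VE-cadherin junctions. In the liver, the sinusoids are lined by a specialized fenestrated endothelium with stellate cells wrapped around it.

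Expression is given as RPKM, a count of reads relative to the length of the transcript in kilobases and to the mapped reads of that library, which corrects for transcript length and allows levels of different genes to be compared. The mapped reads recovered from the values numbered 5759060 to 13494400 per AdCMV library and 5596580 to 8133950 per AdVEGF library, so that 3 reads on a transcript of 1 kilobase corresponded to between 0.222 and 0.536 RPKM. Transcripts of the major urinary protein (Mup) genes are abundant hepatocyte products. Of the reads summed over transcripts, they took 18.0% to 50.5% in the AdCMV libraries and 7.84% to 28.6% in the AdVEGF libraries. That sum exceeded the mapped reads by 2.31% to 13.9%. The median log2 fold change of all transcripts was 0.38 in RPKM and -0.0044 after median-ratio scaling, which sets each library by the median ratio of its transcripts to their average, and each member is therefore given on both scales. The tissue had the markers of its label, with none of 8 hepatocyte markers at 0 in every mouse and summed levels of 22624 to 28094 RPKM in AdCMV and 35599 to 45588 RPKM in AdVEGF mice.

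Of the 5 genes, 4 were higher in the AdVEGF livers: Tie1 rose 8.11-fold, Tek, Ptprb and Angpt2 rose by between 2.49-fold and 2.70-fold, Angpt2 missing the fold threshold after median-ratio scaling, and Angpt1 did not pass the test. A transcript was called when limma, a linear model fitted over all transcripts, gave both an adjusted p below 0.05 and a change of more than 1 on the log2 scale in either direction. The share of all tested transcripts called higher was 13.0%, and 1.54% were called lower. Every AdVEGF mouse exceeded every AdCMV mouse for the same 4 genes, a pattern that 14.3% of all transcripts showed. Here, as for every gene of whole liver, more cells of a type and more RNA per cell cannot be told apart.

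**Figure D1:**
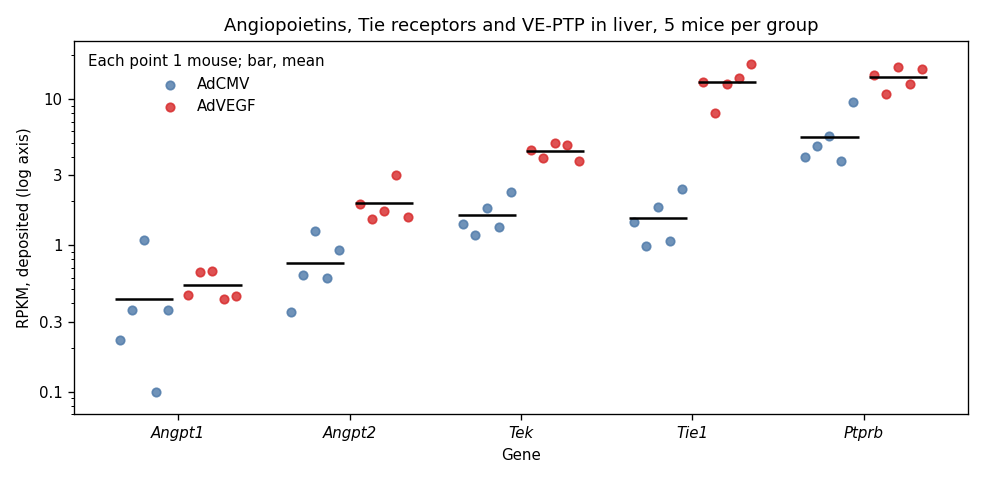
RPKM of the 5 genes (log axis) in each of the 10 livers, with AdCMV mice in blue, AdVEGF mice in red and a black bar at the arithmetic mean of each group of 5. The groups overlap for Angpt1 and are separate for the other 4 genes, and Tie1 moves from the level of Tek in AdCMV livers to that of Ptprb in AdVEGF livers.

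Among the ligands, Angpt2 was higher in the AdVEGF group and Angpt1 was low in both. Angpt2 (NM_007426, mm9 chr8:18690263-18741562, minus strand) had RPKM values of 0.350, 0.626, 1.252, 0.598 and 0.930 in AdCMV mice 1 to 5 and of 1.906, 1.517, 1.712, 3.014 and 1.549 in AdVEGF mice 1 to 5. The lowest AdVEGF mouse was above the highest AdCMV mouse, and AdVEGF mouse 4 stood above the rest of its group. The mean was 0.751 ± 0.347 RPKM (SD, n = 5) in AdCMV and 1.94 ± 0.620 RPKM (SD, n = 5) in AdVEGF livers, and the log2 fold change was 1.31 (SE 0.32, 95% interval 0.63 to 2.00, limma adjusted p = 0.0074). Under median-ratio scaling it was 0.95 (limma adjusted p = 0.014) with the groups still apart, so that Angpt2 passed the p threshold and missed the fold threshold. The values rested on 9 to 35 reads per AdCMV mouse and 34 to 87 reads per AdVEGF mouse. Angpt2 lies within the span of Mcph1 on the opposite strand, and whether reads were counted by strand is not given in the sources used here. Mcph1, a gene of chromosome condensation, had 1.96 ± 0.687 RPKM (SD, n = 5) in AdCMV and 2.57 ± 0.406 RPKM (SD, n = 5) in AdVEGF livers, and its log2 fold change was 0.42 (limma adjusted p = 0.228).

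Angpt1 (NM_001286062, mm9 chr15:42256213-42508523, minus strand) had RPKM values of 0.225, 0.362, 1.091, 0.099 and 0.363 in AdCMV mice 1 to 5 and of 0.455, 0.657, 0.665, 0.429 and 0.449 in AdVEGF mice 1 to 5. The groups overlapped, because AdCMV mouse 3 had the highest level of all 10 mice, while the other 4 AdCMV mice lay below every AdVEGF mouse in RPKM. After median-ratio scaling more mice overlapped, with AdCMV mouse 2 at 0.449 and AdCMV mouse 5 at 0.364 against 0.358 in AdVEGF mouse 4. With 4 to 37 reads per AdCMV mouse and 11 to 21 reads per AdVEGF mouse, Angpt1 was measured less precisely than the other members. Its mean was 0.428 ± 0.387 RPKM (SD, n = 5) in AdCMV and 0.531 ± 0.119 RPKM (SD, n = 5) in AdVEGF livers. The log2 fold change was 0.50 (SE 0.45, 95% interval -0.44 to 1.44, limma adjusted p = 0.417), an interval that holds both no difference and a rise of more than 2-fold. Median-ratio scaling gave 0.21 (limma adjusted p = 0.719). Single mice moved the RPKM value in both directions, to 0.86 (limma adjusted p = 0.0972) without AdCMV mouse 3, whose Mup share of 18.0% was the lowest of its group, and to 0.21 (limma adjusted p = 0.758) without AdCMV mouse 4.

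Both receptors were higher after VEGF gene transfer, and Tie1 rose more than Tek. Tie1 (NM_011587, mm9 chr4:118143796-118162454, minus strand) had RPKM values of 1.433, 0.981, 1.811, 1.073 and 2.433 in AdCMV mice 1 to 5 and of 13.118, 8.035, 12.657, 13.813 and 17.194 in AdVEGF mice 1 to 5. The lowest AdVEGF value was more than 3-fold the highest AdCMV value. The mean changed from 1.55 ± 0.594 RPKM (SD, n = 5) to 13.0 ± 3.28 RPKM (SD, n = 5), and the log2 fold change was 3.02 (SE 0.27, 95% interval 2.46 to 3.58, limma adjusted p = 4.03e-07). Only 0.854% of all tested transcripts had a larger log2 fold change. The call held under each of the 22 alternative settings, including median-ratio scaling under which the log2 fold change was 2.63 (limma adjusted p = 5.55e-06).

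Tek (NM_001290551, mm9 chr4:94405980-94541667, plus strand) had RPKM values of 1.404, 1.179, 1.795, 1.336 and 2.302 in AdCMV mice 1 to 5 and of 4.485, 3.928, 4.975, 4.863 and 3.743 in AdVEGF mice 1 to 5. The groups did not overlap, and the AdVEGF mice lay close together. The mean changed from 1.60 ± 0.452 RPKM (SD, n = 5) to 4.40 ± 0.549 RPKM (SD, n = 5). The log2 fold change was 1.43 (SE 0.23, 95% interval 0.95 to 1.91, limma adjusted p = 0.000211) in RPKM and of 1.04 (limma adjusted p = 0.000318) after median-ratio scaling. Tek was called on both scales, and 8.08% of all tested transcripts had a larger log2 fold change in RPKM.

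Ptprb, the phosphatase, was the most highly expressed member in both groups and rose about as much as Tek. Ptprb (NM_029928, mm9 chr10:115738430-115826594, plus strand) had RPKM values of 3.999, 4.760, 5.577, 3.759 and 9.444 in AdCMV mice 1 to 5 and of 14.628, 10.734, 16.608, 12.721 and 15.999 in AdVEGF mice 1 to 5. AdCMV mouse 5 was the highest of its group and came within reach of AdVEGF mouse 2, the lowest of the other group. The mean changed from 5.51 ± 2.31 RPKM (SD, n = 5) to 14.1 ± 2.42 RPKM (SD, n = 5), and its log2 fold change was 1.41 (SE 0.24, 95% interval 0.89 to 1.93, limma adjusted p = 0.000443). After median-ratio scaling it was 1.01 (limma adjusted p = 0.00307), just past the fold threshold, and the groups overlapped, with 9.47 in AdCMV mouse 5 against 9.11 in AdVEGF mouse 2. The values rested on 344 to 763 reads per AdCMV mouse and 947 to 1279 per AdVEGF mouse, the most of any member.

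**Figure D2:**
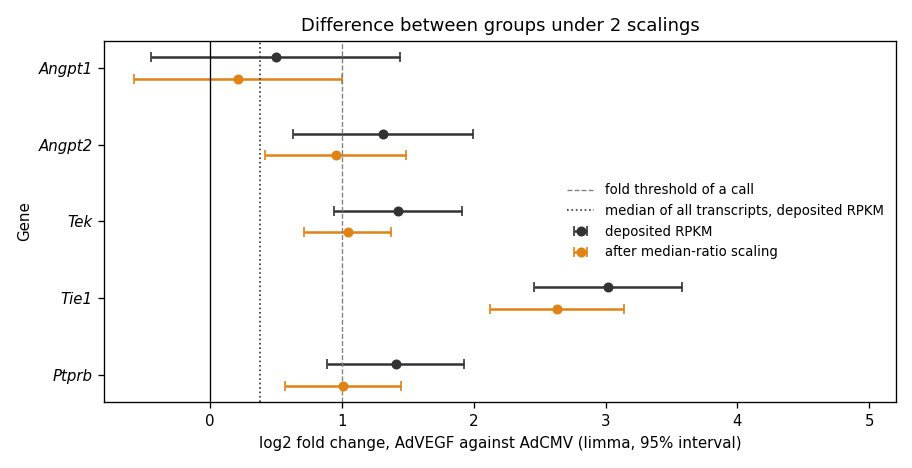
Log2 fold change of AdVEGF against AdCMV with its 95% interval for each gene (limma, 5 mice per group), in RPKM (dark) and after median-ratio scaling (orange). The dotted line marks 0.38, the median of all transcripts in RPKM, and the dashed line the fold threshold. The interval of Tie1 lies beyond those of the other 4 genes on both scales, and Angpt1 is the gene whose interval includes 0.

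The share of members called after median-ratio scaling was 3 of 5, where 7.77% of all tested transcripts were called higher and 3.14% lower. Taken above the median of all transcripts, the log2 fold change in RPKM was 2.64 for Tie1, 1.05 for Tek, 1.03 for Ptprb, 0.93 for Angpt2 and 0.12 for Angpt1.

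The order of levels within the axis differed between the groups in the place of Tie1. In AdCMV livers, Ptprb stood 3.44-fold above Tek with no overlap, followed by Tie1, Angpt2 and Angpt1. Tek and Tie1 were not separated there, since their means differed 1.04-fold and Tek was the higher in 2 of 5 mice. Angpt2 lay 2.06-fold below Tie1 and Angpt1 another 1.76-fold below Angpt2, each in 5 of 5 mice, although the ranges of neighbors overlapped. In AdVEGF livers, Tie1 was next to Ptprb, with means that differed 1.09-fold and Ptprb higher in 3 of 5 mice. Tie1 was 2.95-fold above Tek there, Tek 2.27-fold above Angpt2, and Angpt2 3.65-fold above Angpt1, in every mouse and with no overlap of ranges. Relative to the transcripts tested, Tie1 moved from a level percentile of 23.5 to 69.0, Ptprb from 53.6 to 71.0 and Tek from 24.2 to 39.6.

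A ratio within the same mouse takes out a scaling factor common to its library, apart from the 0.1 RPKM added here to each value, which weighs on low genes such as Angpt1. In all, 8 such ratios were compared by two-sided exact permutation tests over the mice, adjusted over the 8. The ratio of Tie1 to Tek, the orphan receptor against the angiopoietin receptor, was 1.02, 0.845, 1.01, 0.817 and 1.05 in AdCMV mice 1 to 5. It was 2.88, 2.02, 2.51, 2.80 and 4.50 in AdVEGF mice 1 to 5. The ratio was thus near 1 in every AdCMV liver and above 2 in every AdVEGF liver, a 3.01-fold difference (log2 difference 1.59, exact permutation p = 0.00794, the smallest that 5 against 5 mice can give, adjusted p = 0.0127). The ratio of Ptprb to Tek, the phosphatase against its receptor substrate, lay between 2.69 and 3.97 in AdCMV mice and between 2.58 and 4.19 in AdVEGF mice. Its log2 mean was 1.67 ± 0.27 (SD, n = 5) in AdCMV and 1.65 ± 0.28 (SD, n = 5) in AdVEGF livers (difference -0.021, exact permutation p = 0.921), so that the difference of the means was smaller than the spread between mice.

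The balance of the 2 ligands, Angpt2 against Angpt1, did not pass the test. The ratio of Angpt2 to Angpt1 was 1.38, 1.57, 1.14, 3.51 and 2.22 in AdCMV mice 1 to 5 and 3.61, 2.14, 2.37, 5.89 and 3.00 in AdVEGF mice 1 to 5. Angpt2 exceeded Angpt1 in all 10 mice, and AdCMV mouse 4, which had 4 reads of Angpt1, lay among the AdVEGF mice. The log2 difference was 0.81 (exact permutation p = 0.0794, adjusted p = 0.0998). Without AdCMV mouse 4 it was 1.05 (exact permutation adjusted p = 0.0423), and with a pseudocount of 1 in place of 0.1 it was 0.61 (exact permutation adjusted p = 0.0106), both past the threshold.

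Endothelial markers also rose, and 3 of the 4 endothelial members rose less than they did. All 12 pan-endothelial markers, among them the junction proteins Pecam1 and Cdh5, were called higher on both scales, with log2 fold changes between 2.11 and 3.17. Their summed level was 39.6 to 83.7 RPKM in AdCMV mice and 299 to 391 RPKM in AdVEGF mice, and their mean on the log2 scale rose by 2.57. Against that mean in the same mouse, Tek was lower in AdVEGF livers by a log2 difference of -1.14 (0.454-fold), Ptprb by -1.16 (0.447-fold) and Angpt2 by -1.26 (0.419-fold). For each of these 3 genes all AdVEGF mice lay below all AdCMV mice (exact permutation p = 0.00794, adjusted p = 0.0127), and for Tek the difference stayed between -1.18 and -1.09 when any 1 marker was left out. The pan-endothelial list was itself chosen with earlier results of these data known, so p-values against its mean are not independent of that choice. For Tie1, set against the same mean, the log2 difference between the groups was 0.45 and did not pass the test (exact permutation p = 0.0873, adjusted p = 0.0998).

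This result depended on which endothelial markers were used. A second list, of 8 genes typical of liver sinusoidal endothelium, was added after the data had been seen. Of these, 7 were called higher, including the scavenger receptors Stab1 and Stab2 and the hyaluronan receptor Lyve1, with log2 fold changes of 1.29 to 2.10, and 6 of the 8 rose more than Tek. After median-ratio scaling, 6 were called higher and Dnase1l3 was called lower. In RPKM, the nuclease gene Dnase1l3 had a log2 fold change of -0.98, and the mean of the 8 rose by 1.43, less than that of the pan-endothelial list. Set against the sinusoidal mean, the log2 difference was 0.0013 for Tek (exact permutation p = 1), -0.020 for Ptprb (exact permutation p = 0.937) and -0.11 for Angpt2 (exact permutation p = 0.643). Against the same mean, Tie1 was higher in AdVEGF than in AdCMV livers by a log2 difference of 1.59, or 3.01-fold. The groups did not overlap (exact permutation p = 0.00794, adjusted over these 4 ratios p = 0.0317). On average, Tie1 lay below that mean in both groups, at a log2 ratio of -2.33 in AdCMV and -0.74 in AdVEGF livers. These values for Tek, Ptprb and Angpt2 rested on Dnase1l3. Without it, the mean of the other 7 rose by 1.77, and the log2 difference was -0.34 for Tek (exact permutation p = 0.0397, adjusted over the 4 ratios p = 0.0794), -0.36 for Ptprb (exact permutation p = 0.0952) and -0.46 for Angpt2 (exact permutation p = 0.111), with Tie1 at 1.25 (exact permutation p = 0.00794). Leaving out any other sinusoidal marker gave -0.14 to 0.098 over those 3 genes. Tie1 thus rose relative to the sinusoidal mean with or without Dnase1l3, whereas the position of the other 3 genes changed with the markers used.

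**Figure D3:**
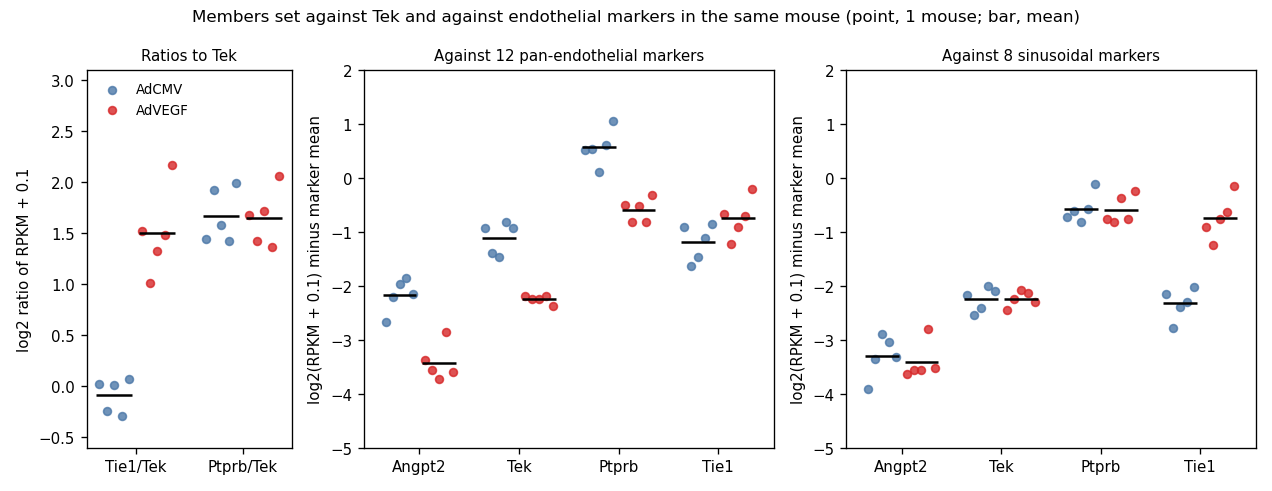
Log2 ratios within each mouse (points, AdCMV blue and AdVEGF red; black bars, means of 5): Tie1 and Ptprb against Tek at left, and 4 members against the mean of 12 pan-endothelial markers in the middle and of 8 sinusoidal markers at right. Tie1 separates from Tek in every AdVEGF mouse, and Tek, Ptprb and Angpt2 lie lower in AdVEGF mice in the middle panel and close to the AdCMV mice in the right panel, where the mean includes Dnase1l3 (log2 fold change -0.98).

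Angpt1 was compared with the cells that mainly make it. Of 10 stellate and mural cell markers, 8 were called higher on both scales, with log2 fold changes over the list from 0.84 to 3.91 and summed levels of 72.3 to 114 RPKM in AdCMV and 153 to 266 RPKM in AdVEGF mice. None was at 0 in every mouse, and their log2 mean rose by 1.95. Cspg4 was at most 0.017 RPKM in AdCMV mice and 0.218 to 1.023 RPKM in AdVEGF mice, so it passed the filter only through the AdVEGF group. The same holds for Angpt1, by its means of 0.428 RPKM in AdCMV and 0.531 RPKM in AdVEGF livers. Relative to the log2 mean of the markers, Angpt1 was lower in all AdVEGF mice than in all AdCMV mice, by a log2 difference of -1.45 (0.366-fold, exact permutation p = 0.00794, adjusted p = 0.0127). The difference stayed between -1.57 and -1.23 when any 1 marker was left out. This list too was chosen with earlier results of these data known. Megakaryocytes and platelets also carry Angpt1, and their markers were higher too, 3 of 3 that were tested, with summed levels of 3.34 to 6.62 RPKM in AdCMV and 8.07 to 33.9 RPKM in AdVEGF mice. The part of platelets in the Angpt1 values was not tested. Of the other lists, 3 of 6 Kupffer cell markers were called higher (2 after median-ratio scaling), 4 of 4 tested T and NK cell markers were called lower on both scales, and 2 of 8 hepatocyte markers were called higher, but none after median-ratio scaling, where 1 was lower. The shares of all tested transcripts were 13.0% higher and 1.54% lower in RPKM, and 7.77% and 3.14% after median-ratio scaling.

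Promoter sequences were available for 2 members only, the receptors Tek and Tie1. They are the 250 bases before the start in RefSeq (GRCm38.p6), at chr4:94739039-94739288 on the plus strand for Tek and chr4:118489850-118490099 on the minus strand for Tie1. They are written 5′ to 3′, with matches on either strand to the letters searched for ETS factors, AGGAAG or CGGAAG, in capitals.
Tek: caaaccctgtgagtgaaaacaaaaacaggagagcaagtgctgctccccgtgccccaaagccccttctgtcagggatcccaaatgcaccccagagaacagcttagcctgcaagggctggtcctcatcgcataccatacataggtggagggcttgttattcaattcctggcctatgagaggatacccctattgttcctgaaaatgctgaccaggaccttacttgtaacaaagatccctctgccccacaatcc
Tie1: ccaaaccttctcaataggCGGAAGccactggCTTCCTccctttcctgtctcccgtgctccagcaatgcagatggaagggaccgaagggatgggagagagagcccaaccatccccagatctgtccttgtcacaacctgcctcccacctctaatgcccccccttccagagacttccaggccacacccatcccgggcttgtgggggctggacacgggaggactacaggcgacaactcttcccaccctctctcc
ETS factors are transcription factors active in endothelial cells. The Tie1 window held 2 matches, at 232 and 219 bases before the start, and the Tek window held 0, while 39.2% of the 32851 windows of this length held at least 1. Read on either strand, the shorter letters GGAA, not searched, occur unmarked in both windows, in the Tek window as TTCC. The search therefore does not show that the Tek window lacks ETS sites. Neither window held, on either strand, the letters searched for factors of the GATA family, which were AGATAA (in 9.99% of all windows), for Foxo factors GTAAACA (3.17%), for the hypoxia response ACGTG (16.6%) or for an E-box CACCTG (17.2%). The windows had GC contents of 51.2% for Tek and 60.4% for Tie1. These are matches of letters only, and no binding was measured.

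Around the 5 members, 17 of the 51 tested genes of 8 lists of partners, signaling proteins and regulators were called higher and none was called lower. Of all tested transcripts, 13.0% were called higher and 1.54% lower. After median-ratio scaling the numbers for the 51 genes were 13 and 0, beside 7.77% and 3.14% of all tested transcripts. Their median log2 fold change was 0.71 beside 0.38 for all transcripts, and the lists hold some genes, such as Kdr, Cdh5 and Nos3, that are themselves mainly endothelial. Of 58 listed genes, 7 fell below the filter. These were Angpt4, Svep1, Ptpro, Ptprh, Angptl1, Angptl7 and Foxc2, and of them Ptprh was listed at 0 in every mouse.

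Among the other partners of the receptors, the integrin subunits Itgb3 (log2 fold change 2.49) and Itgb1 (1.04) were called higher, and Itgb1 was not after median-ratio scaling. Itga5, the fibronectin receptor subunit that associates with Tie2, had the lowest log2 fold change of the list, 0.41, and was not called. Angpt4, the third Tie2 ligand, was at 0 RPKM in every AdVEGF mouse and at most at 0.195 RPKM in AdCMV mice. None of the 16 adaptors and signaling proteins that act directly below Tie2, such as Grb2, Dok2 and the subunits of PI3 kinase, was called in either direction. Of all tested transcripts, 13.0% were called higher and 1.54% lower. In RPKM, Nras (limma adjusted p = 0.0141) and Rasa1 (log2 fold change 0.71, limma adjusted p = 0.0195) passed the p threshold and missed the fold threshold. The log2 fold changes of the 16 ran from 0.063 for the Ras activator Sos1 to 0.80 for Nras, with a median of 0.33 that was close to that of all transcripts.

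In the Akt and Foxo arm, the genes called higher included Nos3 (log2 fold change 2.39), the endothelial nitric oxide synthase, the flow-responsive transcription factor Klf2 (1.56) and Akt1 (1.01), the last not after median-ratio scaling. Foxo1, the transcription factor that Tie2 signaling holds out of the nucleus and that drives Angpt2, missed both thresholds. Its log2 fold change was 0.64 (limma adjusted p = 0.0511), and 0.24 after median-ratio scaling (limma adjusted p = 0.259). Foxo3 had the lowest value, -0.054.

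Of the 6 substrates and partners of VE-PTP, 4 were called higher on both scales: Fgd5 (log2 fold change 2.98), an endothelial exchange factor for Cdc42, the VEGF receptor Kdr (2.78), VE-cadherin Cdh5 (2.61) and plakoglobin Jup (1.68). Each of these had a larger log2 fold change than Ptprb itself (1.41). Their differences from Ptprb were not tested, and Cdh5 is also one of the 12 pan-endothelial markers. The catenin Ctnnd1 had the lowest value, 0.85, and was not called. The related phosphatase Ptprj, the only other tested member of the VE-PTP family, had a log2 fold change of 0.35 and was not called.

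Among the 5 tested angiopoietin-like genes, whose products do not bind Tie receptors, Angptl2 was called higher (log2 fold change 1.73). Of the 3 proteases that shed Tie receptors, Mmp14 was called higher (1.21), though not after median-ratio scaling, and Adam17 had the lowest value, 0.30. Of 7 tested transcription factors known to act on these genes, 5 were called higher: Tal1 (2.71), Ets1 (2.35), Gata2 (2.21), Lyl1 (1.57) and Epas1 (1.32), the last, which encodes HIF-2α, not after median-ratio scaling. Tal1 (mean 0.224 RPKM in AdCMV and 1.96 RPKM in AdVEGF livers) and Gata2 (0.129 and 0.950 RPKM) passed the filter only through the AdVEGF group. Hif1a had the lowest value of that list, 0.22, and was not called.

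**Figure D4:**
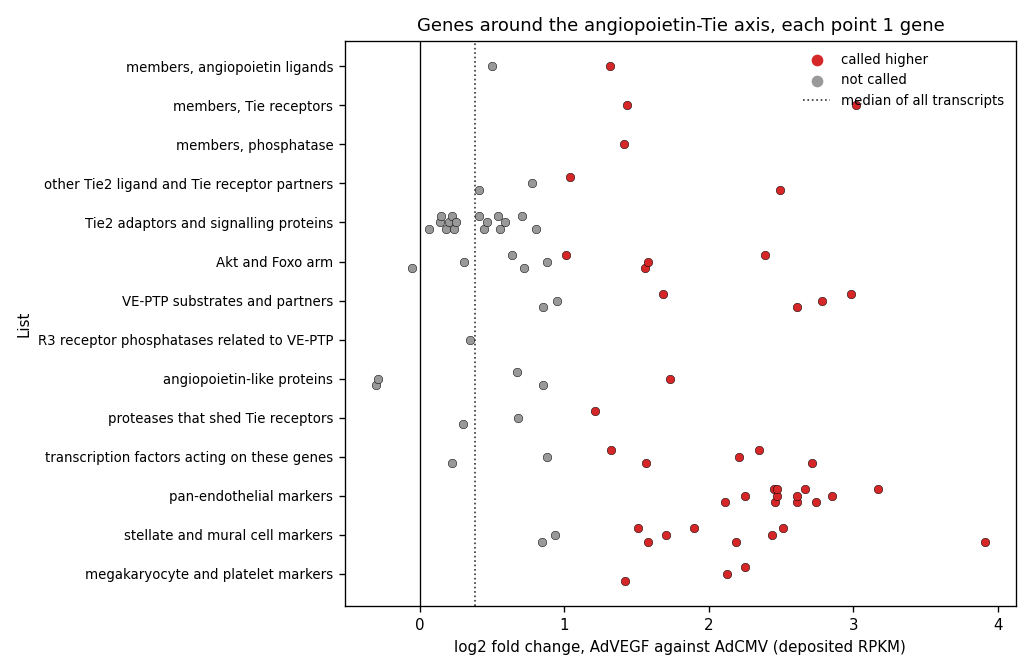
Log2 fold change of AdVEGF against AdCMV for each tested gene (points) of the member groups, the pathway lists and 3 lists of cell type markers, with called genes in red, other genes in gray and a dotted line at 0.38, the median of all transcripts. The 16 adaptors and signaling proteins gather around the dotted line with none called, while all 12 pan-endothelial markers lie to the right of Tek, Ptprb and Angpt2.

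The transcripts most like each member were found by the root-mean-square distance between log2 profiles over the 10 mice, centered per gene and after median-ratio scaling, as a description. Tie1 was closest to Col4a2 (0.18), a basement membrane collagen, to the semaphorin receptor Plxnd1 (0.19) and to Hspg2 (0.23), the proteoglycan perlecan. Tek was closest to Kctd10 (0.16), Myo7a (0.16) and 1700025G04Rik (0.17), and Ptprb to Arhgap23 (0.14), Acvrl1 (0.20), the endothelial receptor ALK1, and Plcb3 (0.21). Angpt2 lay nearest to Tnk1 (0.20), Flrt2 (0.21) and Plscr3 (0.22), and Angpt1 to Nup93 (0.18), Slc25a40 (0.20) and Nedd1 (0.24). The median distance to all transcripts ran from 0.62 for Angpt1 to 1.41 for Tie1. Between members, Tek and Ptprb were the nearest pair (0.24), followed by Angpt2 and Tek (0.36), whereas Tie1 lay 0.85 or more from each of the other 4. Profiles of the same 10 libraries share their depth and composition, and transcripts that differ equally between the groups are near by this measure.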

How the data were processed

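Livers were perfused, RNA was depleted of ribosomal RNA and libraries were sequenced by the study. According to the paper's methods and the labels, the authors mapped reads with TopHat (build mm9), used HOMER and deposited RPKM values for 24016 transcripts, normalized to mapped tags. Their deposited log2 fold change and FDR (adjusted p-value) columns hold their own comparison and were not used. Mice were grouped by the labels. The 5 rows without a symbol (at most 0.00534% of reads) were left out. Reads were recovered from the steps of RPKM values, with 100% of testable values whole within 0.25 read. Summed over transcripts, the reads exceeded the mapped tags by 2.31% to 13.9%.

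Transcripts averaging more than 0.5 RPKM in either group were tested on log2(RPKM + 0.1) with limma 3.58.1 in R 4.3.3 (moderated by eBayes with a mean trend, two-sided, Benjamini-Hochberg over all tested). The thresholds are those of the study. Ratios were tested in Python 3.11.15 (numpy 2.4.6). The pseudocount understates fold changes of low transcripts. The scripts were tested on simulated data. Same-group libraries differed by at least 12.4 times counting noise in chi-square per transcript, so none was another library sequenced again. Whether any came from the same liver cannot be told from this measure. Read limits cover counting error only. Promoters of 2 members were found in the sequence table used and the others were not analysed here.

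The members and lists were chosen with earlier results of these data known. Named besides the members are the called genes and the highest and lowest of each pathway list, and the 3 transcripts most like each member, apart from some genes that are not reported here. Other genes named were chosen after their values were seen. Other settings tried were scaling by median ratio or upper quartile, pseudocounts of 1 and 0.01, no filter, a mean over 1 RPKM, treat, voom on recovered reads, 1 row per symbol, a block for the replicate number, and the omission of 1 mouse at a time. The sinusoidal markers, their mean with each marker left out and voom with median-ratio scaling were added once the values were known.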

Additional observations from a re-analysis of the deposited data

Results flagged for a closer look

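Among 26 groups of 5 values checked for a sample far from the others, 2 held one, where chance gives about 1 in 20. Angpt1 in AdCMV mouse 3 was at 1.091 RPKM, with the other 4 AdCMV mice at 0.363 RPKM or less. Angpt2 in AdVEGF mouse 4 was at 3.014 RPKM, with the other 4 AdVEGF mice at 1.906 RPKM or less.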

How the results depend on the processing

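The number of transcripts called higher, 1808 as reported, was 1082 after median-ratio scaling, 1169 after upper quartile scaling, 954 with a pseudocount of 1, 503 with treat, which tests against the fold threshold itself, and 1135 with voom and median-ratio scaling. The number called lower, 214 as reported, was 438, 366, 36 and 477 with median-ratio scaling, upper quartile scaling, treat and voom with median-ratio scaling. Angpt2 was not called after median-ratio scaling (log2 fold change 0.95), with a pseudocount of 1 (0.75) or with treat (1.31, adjusted p = 1), nor with the replicate block and median-ratio scaling together. Treat also did not call Tek (1.43, adjusted p = 0.572) or Ptprb (1.41, adjusted p = 0.752), and it called 7 of the 51 pathway genes. Under the other alternatives these calls held, and Tie1 was called under all 22. Angpt1 was below the filter without AdVEGF mouse 2, without AdVEGF mouse 3 and with a mean over 1 RPKM, and it was not called under any of the other 19.

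The ratio of Angpt2 to Angpt1 passed the threshold with a pseudocount of 1 (log2 difference 0.61), and leaving out 1 mouse gave 0.59 to 1.05, past the threshold without AdCMV mouse 4. The ratio of Ptprb to Tek changed sign with a pseudocount of 1 (0.20) and in 4 of 10 cases of leaving out a mouse (-0.12 to 0.058), never past the threshold. With sinusoidal in place of pan-endothelial markers, the log2 differences were -0.11 for Angpt2, 0.0013 for Tek, -0.020 for Ptprb and 1.59 for Tie1, and without Dnase1l3 among them -0.46, -0.34, -0.36 and 1.25. The cause of these changes was not tested.

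Mice with the same replicate number in the labels showed correlations of their deviations of 0.0076 to 0.29, and 4 of 10 mice correlated best with their own number, so the numbers were not taken as pairs. With the replicate block and median-ratio scaling, 1081 transcripts were called higher and 475 lower, and Angpt2 was at 0.95. In the block, 5 pairs cannot give an exact p under 0.0625, so Tie1 to Tek (1.59), the ratios to the endothelial mean of Angpt2 (-1.26), Tek (-1.14) and Ptprb (-1.16), and that of Angpt1 to the stellate and mural mean (-1.45) could not pass. The block alone changed no call of a member.

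Depth limits Angpt1 most, at 4 to 37 reads per mouse, and its 95% interval does not separate no change from a rise.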
